A study of Homo sapiens with 6 samples.

Results

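Transcripts of 37 genes of autophagy and the lysosome were measured in the human bronchial epithelial cell line BEAS-2B after 2 treatments. The genes were chosen by symbol from a list of autophagy proteins, autophagy receptors, transcription factors of the lysosome, and lysosomal membrane proteins and enzymes. The rule uses symbols only, but the list was drawn up with earlier results of these data known. All 37 were found among the 35019 Ensembl identifiers of the expression table, and all 37 were among the 14188 genes with a mean normalised count of at least 10, the filter for testing. The first group, RSL3+ID, had received indirubin (ID), a bis-indole compound that inhibits several kinases, 2 h before RSL3. The second group, RSL3, had received RSL3 alone, a covalent inhibitor of the lipid peroxidase GPX4 that is used to start ferroptosis, an iron-dependent cell death. Both groups had 2 µM RSL3 for 24 h and held 3 libraries each. Indirubin is given as a range of 7.5 to 30 µM, and the dose behind these libraries is not stated. Untreated cells and cells given indirubin alone are not analysed here, so a changed response to RSL3 and an effect of indirubin itself cannot be told apart.

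Macroautophagy encloses cytoplasm in a double membrane, the autophagosome, which fuses with the lysosome, where acid hydrolases break the cargo down. The ULK kinase complex and a Beclin 1 lipid kinase complex start the membrane, ATG9 and ATG2 supply it with lipid, and a ubiquitin-like conjugation system attaches ATG8 proteins (the LC3 and GABARAP families) to it. Receptors bind cargo and ATG8 together, and TFEB and TFE3, which MTORC1 holds in the cytoplasm, drive transcription of many of these genes. Autophagy of ferritin releases iron, a step known to feed ferroptosis.

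The 6 libraries held 16065406, 16062502 and 18506637 reads on listed genes in RSL3+ID cells, and 17960356, 15206183 and 15292004 in RSL3 cells. The 37 genes took 0.596, 0.650 and 0.578% of these reads in the RSL3+ID libraries, against 0.647, 0.605 and 0.640% in the RSL3 libraries. Values below are normalised counts, that is, reads divided by the authors' size factors, unless stated otherwise, and a count of 0 would allow up to 3 reads, or 2.68 to 3.17 normalised counts. The library RSL3+ID 2 lay farthest from its group over these genes, with a mean absolute gap of 0.248 on the log2 scale, against 0.200 and 0.196 for the other RSL3+ID libraries and 0.125 to 0.165 for the RSL3 libraries. Of 10 airway epithelial markers, 6 passed the filter, and KRT5, KRT14, TP63 and CDH1 did not. The summed epithelial markers ranged from 42745 to 53587 in RSL3+ID libraries and from 54446 to 58315 in RSL3 libraries, and the sum was made up mostly of KRT7, KRT8 and KRT17. KRT18 was the only marker to pass the test and fell (log2 fold change −0.66, limma, Benjamini-Hochberg adjusted p = 0.0361). EPCAM had the opposite sign, with 44.4, 45.6 and 64.5 normalised counts in RSL3+ID libraries, against 25.0, 34.1 and 40.3 in RSL3 libraries (log2 fold change 0.63, limma adjusted p = 0.382). The part of this marker difference in the results below was not tested.

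TFEB and TFE3 bind the motif CACGTG, also in a longer form known from lysosomal genes, with GT before it and AC after it, so the promoters of the genes were searched for it. RefSeq promoter windows (GRCh38.p14, from 250 bases before to 50 after each start) were at hand for 32 of the 37 genes, in 38 windows. CACGTG, which reads the same on both strands, was present in 6 of the 38 windows (15.8%), against 7.26% of all 35116 windows and 9.12% of the 16340 windows of tested genes. The longer form was present in the MCOLN1 window alone (2.63%, against 0.353% of all windows). The 6 genes were ATG3, ATG14, CTSA, CTSD, LAMP1 and MCOLN1. LAMP1 and MCOLN1 are printed first, with CACGTG in capitals, since all or nearly all of their copies lie outside annotated exons. GABARAPL2 and GABARAPL1, which hold no CACGTG in their windows, follow because the measured differences turn on them. Every stretch lies before the RefSeq start, touches no exon of GENCODE and is given 5′ to 3′ on the gene's strand.
LAMP1: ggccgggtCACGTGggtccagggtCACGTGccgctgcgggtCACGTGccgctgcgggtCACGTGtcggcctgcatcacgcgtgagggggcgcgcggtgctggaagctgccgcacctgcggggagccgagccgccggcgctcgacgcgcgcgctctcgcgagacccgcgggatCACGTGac
MCOLN1: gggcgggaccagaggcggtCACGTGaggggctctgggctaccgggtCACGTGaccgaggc
GABARAPL2: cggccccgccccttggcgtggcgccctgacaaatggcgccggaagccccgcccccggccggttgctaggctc
GABARAPL1: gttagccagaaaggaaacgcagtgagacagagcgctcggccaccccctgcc
LAMP1 had 6 copies of CACGTG in its window, of which 5 lie in the stretch shown (chr13:113297039-113297218, plus strand) and 1 touches an exon. Both copies of MCOLN1 are shown (chr19:7522564-7522623, plus strand), and every copy of ATG3, ATG14, CTSA and CTSD touches an exon of GENCODE. The other stretches are chr16:75566279-75566350 (GABARAPL2, plus strand) and chr12:10212754-10212804 (GABARAPL1, plus strand). RefSeq and GENCODE place the starts differently: the RefSeq start lies 28 bases downstream of the first GENCODE base of GABARAPL2 and 419 bases downstream of that of GABARAPL1. The GABARAPL1 stretch therefore lies inside the GENCODE span given further on. The 6 genes with CACGTG had a median log2 fold change of −0.09 and the 26 without it of −0.10, and none of the 6 passed the test.

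Most of the 37 genes differed little between RSL3+ID and RSL3 cells. 18 had a positive and 19 a negative log2 fold change (RSL3+ID over RSL3, on the log2(normalised count + 1) scale), with a median of −0.01 against −0.02 over all 14188 tested genes, of which 48.5% were positive, and 34 of the 37 lay within 0.5 of 0 (91.9%, against 75.9% of all tested genes). With limma and Benjamini-Hochberg adjustment over all tested genes, 1 gene rose at an adjusted p under 0.05, GABARAPL2, and none fell, a share of 2.7% against a background of 1.91% (1.08% higher and 0.832% lower). Over all genes 153 were higher and 118 lower, a split that depends on the scaling: with total-count scaling, which moved the median of all genes to −0.11, it was 90 higher and 217 lower, and with upper-quartile scaling 241 higher and 86 lower. At an unadjusted p under 0.05, 3 were higher and 5 lower, 21.6% against 19.3% of all tested genes (9.63% higher and 9.71% lower). The 3 RSL3+ID and 3 RSL3 values did not overlap for 5 genes that were higher and 6 that were lower, 29.7% against 25.4% of all tested genes (12.8% higher and 12.6% lower). Of the 37, 2 are listed in the authors' deposited table, GABARAPL2 and GABARAPL1, which lists 6.3% of all tested genes. The shares of calls, of groups without overlap and of listed genes lie near the background, while the share within 0.5 of 0 is larger. By mean count only GABARAP and TFEB lay below the median tested gene, and no comparison with genes of like count was made. In bulk RNA, a change in every cell and a change in the mix of cell states cannot be told apart.

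**Figure D1:**
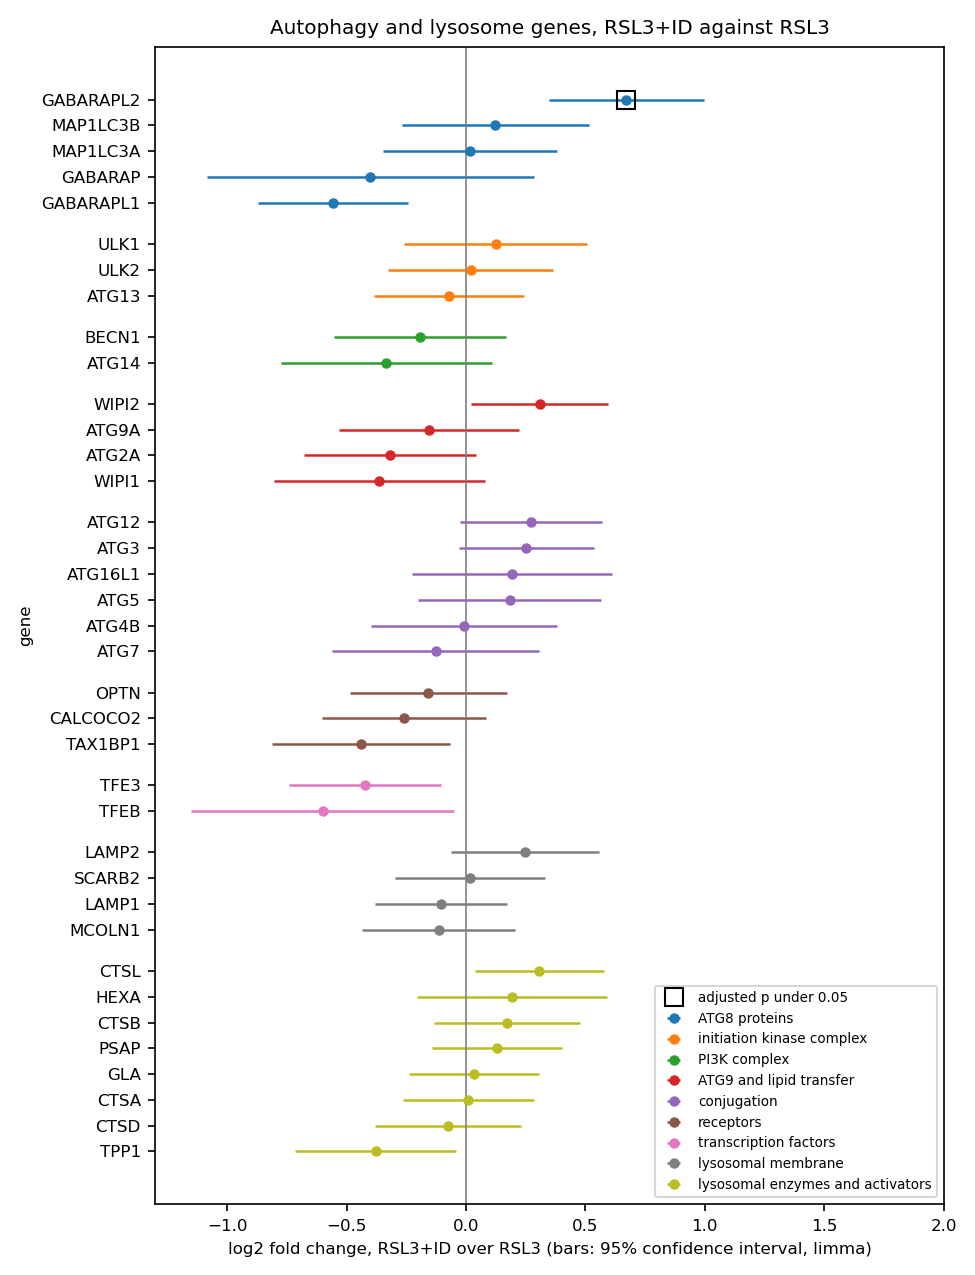
Log2 fold change of each of the 37 genes (x axis, RSL3+ID over RSL3) with its 95% confidence interval from limma, grouped by role down the y axis. GABARAPL2 at 0.67 is the only gene boxed for an adjusted p under 0.05, and the lowest value is that of TFEB at −0.60.

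The ATG8 family held the gene with the largest rise and the gene with the second smallest p, in opposite directions. GABARAPL2 (GATE-16, chr16:75566351-75577881 in GRCh38), a protein of autophagosome maturation and Golgi transport, had 1478, 1885 and 1689 normalised counts in RSL3+ID libraries, against 1009.7, 1016 and 1134 in RSL3 libraries. Every RSL3+ID library lay above every RSL3 library, with means of 1684 ± 203 and 1053 ± 69.7 (SD, n = 3 each). The rise was 1.59-fold, a log2 fold change of 0.67 (SE 0.15, limma adjusted p = 0.0473). The call is close to the threshold, and it was lost without any single library other than RSL3+ID 2 (limma adjusted p between 0.0720 and 0.271), while without RSL3+ID 2 the log2 fold change was 0.59 (limma adjusted p = 0.0144). With total-count scaling it was 0.58 and missed the threshold (limma adjusted p = 0.0748). The authors' deposited table lists GABARAPL2 at a log2 fold change of 0.68 with an adjusted p of 0.00355.

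GABARAPL1 (GEC1, chr12:10212458-10223130 in GRCh38), a close relative that binds the GABA-A receptor and autophagy receptors, had 3678, 4876 and 4053 normalised counts in RSL3+ID libraries, against 6592, 5568 and 6282 in RSL3 libraries. The groups did not overlap, and RSL3+ID 2 lay nearest to the RSL3 libraries. The means were 4202 ± 613 and 6147 ± 525 (SD, n = 3 each), a log2 fold change of −0.56 (SE 0.145) that missed the threshold (limma adjusted p = 0.0717). Without RSL3+ID 2 it was −0.67 and passed (limma adjusted p = 0.00173), as did 9.34% of all tested genes. With total-count scaling it was −0.65 (limma adjusted p = 0.0467), and the authors' deposited table lists it at −0.55 with an adjusted p of 0.0202. An antisense gene overlaps 329 of its 4086 exon bases. The strand setting of the counting is not given in the sources used here, so reads from those bases cannot be assigned to either gene.

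The remaining ATG8 genes did not separate the groups. MAP1LC3B, whose protein LC3B is the usual marker of autophagosomes, had 7328, 4321 and 6560.2 normalised counts in RSL3+ID libraries, against 5588, 5638 and 5107 in RSL3 libraries. RSL3+ID 2 was the lowest and RSL3+ID 1 the highest of all 6, and the log2 fold change was 0.12 (95% interval −0.27 to 0.51). MAP1LC3A differed by 0.02, and GABARAP, the lowest of the family at 63.7 ± 15.9 in RSL3+ID cells and 83.6 ± 15.0 in RSL3 cells (SD, n = 3 each), by −0.40 (95% interval −1.08 to 0.28). GABARAP has 2266 exon bases, and the overlaps with 2 other annotated genes add up to 1262 bases, so its level is uncertain.

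Each library also gives the make-up of the family, a measure that no scaling between libraries affects. Per kilobase of exon, GABARAPL2 made up 17.1 ± 2.18% of the ATG8 total in RSL3+ID cells and 10.2 ± 0.655% in RSL3 cells (SD, n = 3 each). GABARAPL1 made up 31.6 ± 4.81% in RSL3+ID cells and 44.2 ± 2.18% in RSL3 cells, and MAP1LC3B 35.1 ± 8.84% and 30.2 ± 2.37%. The log2 ratio of GABARAPL2 to GABARAPL1 was −1.32, −1.37 and −1.26 in RSL3+ID libraries, against −2.71, −2.45 and −2.47 in RSL3 libraries, a difference of 1.23. The gap between the groups is wider than the range within either, but the pair was picked after its values were seen, so no test is given.

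**Figure D2:**
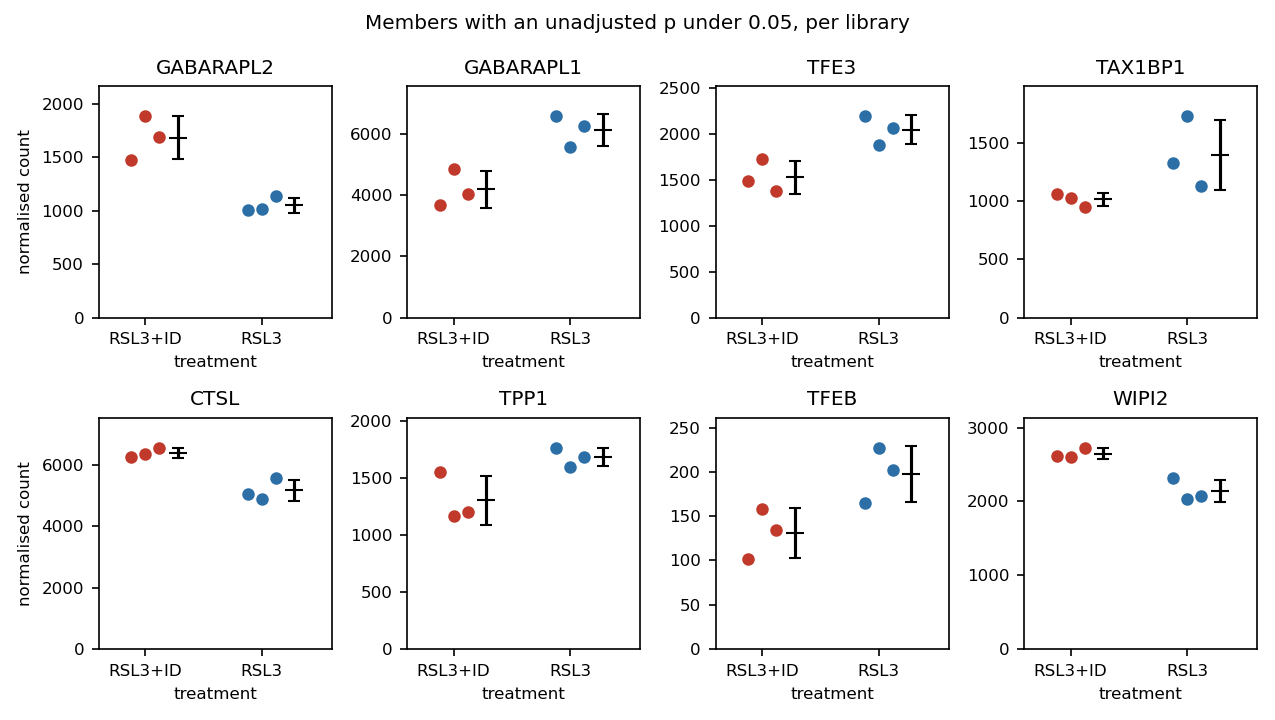
Normalised counts per library (y axes from 0) for the 8 genes with an unadjusted limma p under 0.05, RSL3+ID left and RSL3 right in each panel, with bars for the mean and SD of 3 libraries. The groups do not overlap in any of the 8 panels, against no overlap in 25.4% of all tested genes, but the 8 were picked by p on these same values. Only GABARAPL2 passed after adjustment.

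The transcription factors of lysosomal genes were both lower in RSL3+ID cells without passing the test. TFE3 (chrX:49028726-49043486 in GRCh38) had 1483, 1728 and 1374 normalised counts in RSL3+ID libraries, against 2194, 1878 and 2062 in RSL3 libraries. Its groups did not overlap, and its log2 fold change of −0.42 (SE 0.15, limma adjusted p = 0.144) passed only without RSL3+ID 2, at −0.52 (limma adjusted p = 0.0199). Over all tested genes, 9.34% passed without that library. TFEB (chr6:41683978-41736259), the best known regulator of lysosome number, was a low transcript with 101, 158 and 135 normalised counts in RSL3+ID libraries, against 164, 227 and 202 in RSL3 libraries. The groups were separate by a small margin, between RSL3+ID 2 and RSL3 1, and the log2 fold change was −0.60 (SE 0.25, limma adjusted p = 0.217), or −0.37 on the deposited log2 values, which compress low genes. MITF, the third member of this factor family in these cells, had 108, 96.1 and 155 against 178, 203 and 145 normalised counts in RSL3+ID and RSL3 libraries, and its groups overlapped (log2 fold change −0.56, limma adjusted p = 0.269).

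No gene of initiation or membrane supply passed. ULK1, the kinase that starts autophagy, had 1679, 2163 and 1329 normalised counts in RSL3+ID libraries, against 1609, 1467 and 1581 in RSL3 libraries, with RSL3+ID libraries both above and below all RSL3 libraries (log2 fold change 0.12). ULK2 (0.02) and the ULK partner ATG13 (−0.07) lay near 0. BECN1, the scaffold of the lipid kinase complex, had 931, 1137 and 1079 in RSL3+ID libraries, against 1291, 987 and 1334 in RSL3 libraries, and its log2 fold change of −0.19 had a 95% interval of −0.55 to 0.17. Its partner ATG14, which directs the complex to autophagy, was at −0.33. BECN1 has 6414 exon bases, and the overlaps with 2 opposite-strand genes add up to 1095 bases.

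WIPI proteins read the lipid that this complex makes. WIPI2, which recruits ATG16L1, had 2618, 2594 and 2727 normalised counts in RSL3+ID libraries, against 2313, 2035 and 2071 in RSL3 libraries, without overlap (log2 fold change 0.31, limma adjusted p = 0.225). WIPI1 had the opposite sign at −0.36, also without overlap (limma adjusted p = 0.353). The scramblase ATG9A (−0.15) and the lipid transfer protein ATG2A (−0.32) overlapped between the groups. Overlaps with other annotated genes add up to 1833 of the 4724 exon bases of ATG9A and 955 of the 3402 of WIPI1.

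Of the 6 conjugation genes, 4 had positive and 2 negative log2 fold changes, with a median of 0.19, and none passed the test. ATG3, the enzyme that passes ATG8 to lipid, had 2910.5, 3306 and 3227 normalised counts in RSL3+ID libraries, against 2666, 2563 and 2686 in RSL3 libraries. All RSL3+ID libraries were above all RSL3 libraries, as they were for the ubiquitin-like ATG12, with log2 fold changes of 0.25 for ATG3 and 0.27 for ATG12 (limma adjusted p = 0.312 and 0.296). ATG5 (0.18) and ATG16L1 (0.19), which form a complex with ATG12, overlapped, as did the activating enzyme ATG7 (−0.13) and the protease ATG4B (−0.01).

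All 3 cargo receptors in the set had negative log2 fold changes, and none passed. TAX1BP1, a receptor that also takes part in ferritin turnover, had 1066, 1029.8 and 955 normalised counts in RSL3+ID libraries, against 1329.5, 1732 and 1135 in RSL3 libraries. The groups did not overlap, and RSL3 2 stood well above the rest (log2 fold change −0.44, limma adjusted p = 0.191). CALCOCO2 (NDP52), a receptor for bacteria and damaged mitochondria, had 1204, 1262 and 987 in RSL3+ID libraries, against 1507, 1404 and 1212 in RSL3 libraries, with overlap (−0.26). OPTN, which acts in the same pathways, was at −0.16.

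**Figure D3:**
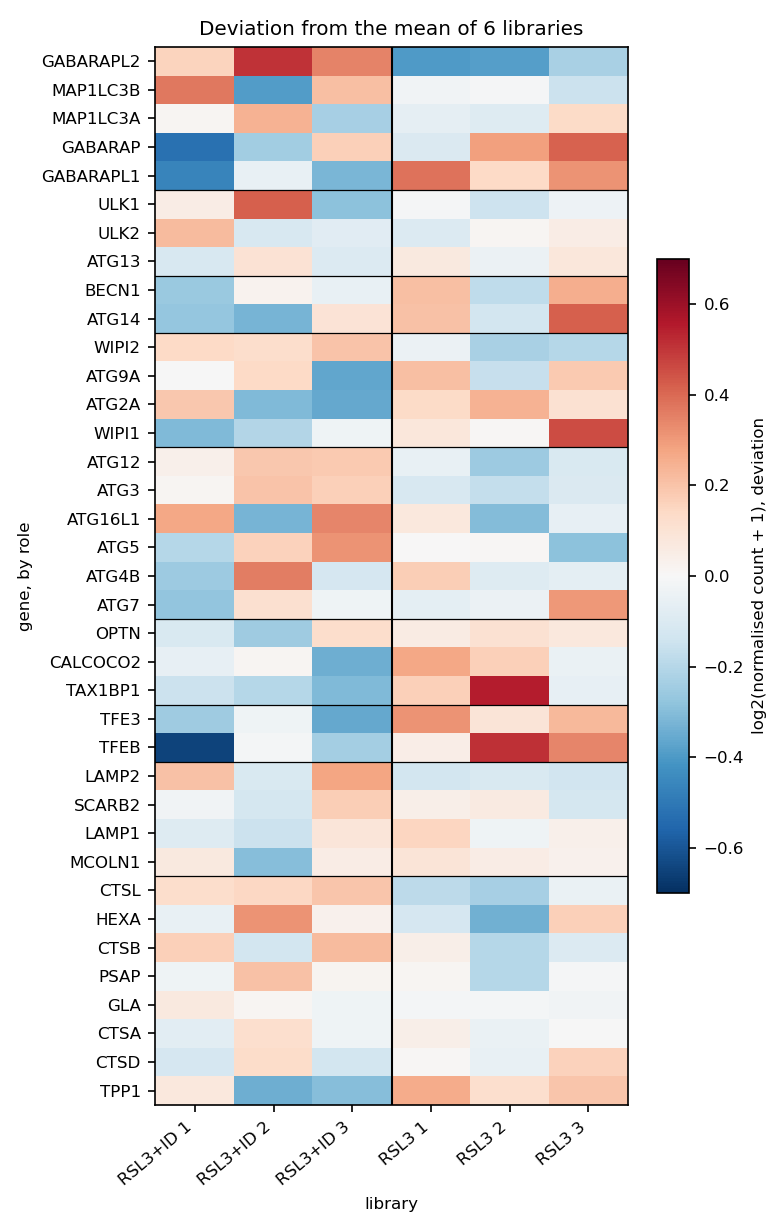
Deviation of log2(normalised count + 1) from the mean of the 6 libraries for each of the 37 genes (rows, by role) in each library (columns, RSL3+ID left). GABARAPL2 is above its mean in all 3 RSL3+ID libraries, and GABARAPL1, TFE3 and TFEB lie above their means in all 3 RSL3 libraries, while most other rows show no split between the groups.

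Membrane proteins of the lysosome did not separate the groups. LAMP1, the most abundant of them in this set and the one with 6 promoter copies of CACGTG, had 7771, 7438 and 8751 normalised counts in RSL3+ID libraries, against 9170.0, 8088 and 8457 in RSL3 libraries. The values overlapped, and the 95% interval of the log2 fold change of −0.10 ran from −0.38 to 0.17. LAMP2, needed for fusion and chaperone-mediated autophagy, was at 0.25, the calcium channel MCOLN1 at −0.12 and SCARB2, a membrane protein also known as LIMP-2, at 0.02. The overlap of LAMP2 came from RSL3+ID 2 alone, and without that library its log2 fold change was 0.36 (limma adjusted p = 0.0708).

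The 8 lysosomal enzymes and activators had a median log2 fold change of 0.08, and none passed the test. PSAP, the precursor of the saposins and the gene with the highest counts of the 37, had 22864, 26915 and 23653 normalised counts in RSL3+ID libraries, against 23531, 20319 and 23172 in RSL3 libraries, with overlap (0.13). The cysteine protease CTSL had 6243, 6338 and 6556 in RSL3+ID libraries, against 5050.1, 4882 and 5563 in RSL3 libraries, without overlap (0.31, limma adjusted p = 0.204). CTSL moved to 0.18 once the relation of fold change to exon length over all genes had been removed.

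The peptidase TPP1 had 1552, 1163 and 1199.6 in RSL3+ID libraries, against 1764, 1599 and 1686 in RSL3 libraries, also without overlap but in the opposite direction (−0.38, limma adjusted p = 0.206). The aspartic protease CTSD had 2167, 2570.2 and 2152 in RSL3+ID libraries, against 2358, 2262 and 2622 in RSL3 libraries, and its log2 fold change of −0.07 had a 95% interval of −0.38 to 0.23. CTSD has 3126 exon bases, and the overlaps with 2 other annotated genes add up to 1797 bases, so its level is uncertain. CTSB (0.17), HEXA (0.19), GLA (0.03) and CTSA (0.01) all overlapped. Of the 8, 1 was higher and 1 lower without overlap, a share of 25.0% against 25.4% of all tested genes.

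Beyond the 37, 152 tested genes of 8 further lists of the pathway were counted in the same limma test. At an adjusted p under 0.05, 1 rose and 2 fell (1.97%, against 1.91% of all tested genes). 2 of them are mitophagy receptors with opposite signs. BNIP3 had 6457, 6248 and 7876 normalised counts in RSL3+ID libraries, against 4313, 4175 and 4663 in RSL3 libraries, and rose 1.56-fold (limma adjusted p = 0.0426). Its relative BNIP3L (NIX) had 510.1, 530.3 and 531 in RSL3+ID libraries, against 912, 895 and 745 in RSL3 libraries, and fell to a level 1.62-fold lower (limma adjusted p = 0.0491). VPS11, a core subunit of the HOPS tethering complex that joins autophagosomes to lysosomes, had 483, 567 and 534 in RSL3+ID libraries, against 1030.2, 782 and 1063 in RSL3 libraries, and fell to a level 1.80-fold lower (limma adjusted p = 0.0393). In all 3 genes the groups were clearly apart. The authors' deposited table lists 8 of the 152 genes, these 3 among them, and 6.3% of all tested genes. As with GABARAPL2, each of the 3 limma calls was lost without any single library other than RSL3+ID 2. The limma adjusted p-values then rose up to 0.266 for BNIP3, 0.3001 for BNIP3L and 0.262 for VPS11. The call of BNIP3L was also lost with upper-quartile scaling (limma adjusted p = 0.0627), with voom (limma adjusted p = 0.0507), with no filter on low counts (limma adjusted p = 0.0566) and with the exon length trend removed (limma adjusted p = 0.0521).

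The lists with no call differed in their medians by little. The V-ATPase, the proton pump that acidifies the lysosome, had 14 positive and 3 negative log2 fold changes among 17 subunits and a median of 0.19, and 6 subunits were higher and 1 lower without overlap (41.2%, against 25.4% of all tested genes). Its smallest p-values belonged to ATP6V1B2 (−0.32, limma adjusted p = 0.214) and ATP6AP2 (0.35, limma adjusted p = 0.238). The 34 other lysosomal enzymes had a median of 0.09, with the smallest p for SMPD1, the acid sphingomyelinase (0.76, limma adjusted p = 0.0803). The authors' deposited table lists 3 of the 34, among them SMPD1 with an adjusted p of 0.0114. The 28 other membrane and delivery proteins had 14 positive and 14 negative log2 fold changes and a median of 0.00. NPC2 at 0.41 and GM2A at 0.39 had the smallest p-values. NPC1, with a p close to that of GM2A, had the opposite sign (−0.36, limma adjusted p = 0.236).

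Upstream of TFEB, the 24 tested genes of MTORC1 and its control had a median of −0.08. LAMTOR5, a subunit of the Ragulator complex, had 1780.5, 2143 and 1851 normalised counts in RSL3+ID libraries, against 1319, 1188 and 1315 in RSL3 libraries (0.59, limma adjusted p = 0.0580). FNIP1, a partner of folliculin, had 1071, 738 and 742 in RSL3+ID libraries, against 1374, 2002 and 1211 in RSL3 libraries (−0.83, limma adjusted p = 0.0666). Both are apart between the groups, and both are in the authors' deposited table, LAMTOR5 with an adjusted p of 0.00879 and FNIP1 with 0.00708. The 11 other initiation genes had a median of 0.07, with NRBF2 at 0.41 and ATG101 at 0.43. The 11 other genes listed under conjugation and membrane supply had a median of −0.04, with WDR45B at 0.35 and EPG5 at −0.57. EPG5 is listed under fusion as well.

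The receptors tied to ferroptosis were measured as well. NCOA4, the receptor for ferritin, differed by −0.01 (limma adjusted p = 0.970), at 1983 ± 165 in RSL3+ID cells and 1997 ± 103 in RSL3 cells (SD, n = 3 each). SQSTM1 (p62), an autophagy receptor that is also a target of the oxidative stress factor NRF2, had 37892, 60709.6 and 39441 normalised counts in RSL3+ID libraries, against 50102, 43229 and 58424 in RSL3 libraries. Its values overlapped, and RSL3+ID 2 was the highest of the 6 (−0.16, limma adjusted p = 0.672).

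**Figure D4:**
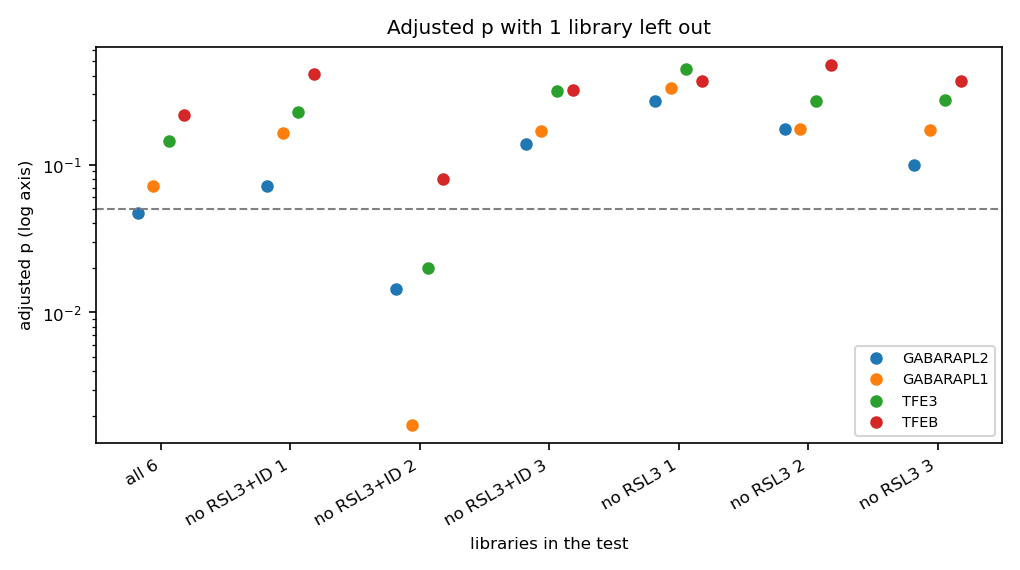
Limma adjusted p (log y axis) of GABARAPL2, GABARAPL1, TFE3 and TFEB with all 6 libraries and with each library left out (x axis), with a dashed line at 0.05. GABARAPL2, GABARAPL1 and TFE3 lie below the line without RSL3+ID 2, where 9.34% of all tested genes do. Without any other library no point does.

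The number of calls over all tested genes depended on single libraries as well. Without RSL3+ID 2, 742 genes were higher and 583 lower (9.34%), against 153 and 118 with all 6 libraries. Of the 37, 1 was then higher and 2 were lower. Without any other single library, 0 or 1 of all 14188 tested genes were higher and 0 to 4 lower. Log2 fold change also fell with exon length over all tested genes (Spearman −0.255 across 14188 genes, which are not independent), while the relation over the 37 was 0.106. GABARAPL2 is shorter than most of them at 3034 exon bases, against a median of 5739, and with the length trend removed its log2 fold change was 0.59 (limma adjusted p = 0.0601).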

How the data were processed

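RNA of BEAS-2B cells was extracted with TRIzol and sequenced from NEBNext Ultra libraries, per the labels' protocols. Groups come from the treatment field, since sample titles share the start RSL3+M, with M undefined. The titles end in .R1 (RSL3) or .R2 (RSL3+ID), endings that are not defined either. Columns were assigned to groups by name, and those named for RSL3 with a garbled further word were taken as RSL3+ID. Whether the libraries of a group are separate cultures is not stated, so their spread, and with it each p-value, may be technical. The 3 columns of a group do differ by more than counting error (chi-square per gene of 14.7 to 67.4), so each was taken as 1 library. Tools named in the submitters' processing notes are Trimmomatic 0.39, HISAT2 2.2.1, StringTie 2.1.5, DESeq2 1.30.0 and GRCh38 (hg38), without roles. The sources used here give no counter, strand setting or annotation.

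Expression values were deposited on a log2 scale, in 35233 entries, of which 214 repeats of an identifier were left out. Their form is that of a variance-stabilising transform with a shared lowest value of 6.04. It was inverted to normalised counts, whose means equal the signal column baseMean of the authors' deposited table (895 genes) to a relative difference of 2.5e-14. Divided by the step of each column, 100.0% of values lay within 0.001 of whole reads. The authors' deposited table also gives log2 fold changes and adjusted p-values, per the file headers.

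The test was limma 3.58.1 (R 4.3.3; trended, robust) on log2(normalised count + 1), over genes with a mean normalised count of at least 10, 2-sided, with Benjamini-Hochberg adjustment over all 14188. The step was tested on simulated data. The log2(normalised count + 1) scale understates the change of low genes. Alternatives were total-count and upper-quartile scaling, pseudocounts of 0.5 and 5, no filter and a minimum of 50, the deposited log2 values, voom, a replicate block, removal of the exon length trend, and each library left out. Gene spans and exon lengths are from GENCODE for GRCh38, and promoters from RefSeq. 18 of the 37 genes share exon bases with another annotated gene and 5 have named pseudogenes, which may share reads. The shared bases are given above for only some of the 18.

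The genes and lists were chosen with earlier results of these data known. Per-library values are given for genes past the threshold or with an unadjusted p under 0.05, the most abundant gene of each role, and the usual markers BECN1, ULK1, MAP1LC3B, TFEB, LAMP1 and CTSD. In the further lists the genes past the threshold, or otherwise the 2 with the smallest p, are named, and SQSTM1, NCOA4 and MITF whatever their values. One gene that this rule would name is not reported here. TFEC, ACP5 and CD68 were too low to test. Summed markers of other cell types ranged in RSL3+ID and RSL3 libraries from 5446 to 11138 and 9302 to 10463 (mesenchymal), 19.8 to 64.4 and 49.6 to 77.5 (endothelial) and 522 to 848 and 415 to 573 (leukocyte, with CD3E at 0 in all 6).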

Additional observations from a re-analysis of the deposited data

How the results depend on the processing

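27 of the 37 genes kept the sign of their fold change in all 16 alternatives, and 10 turned in at least 1. With total-count scaling 90 genes were higher and 217 lower at a limma adjusted p under 0.05, against 153 and 118. Of the 37, 0 were then higher and 1 lower (GABARAPL1), their median was −0.10, and GLA (−0.057), ULK2 (−0.071), SCARB2 (−0.075), MAP1LC3A (−0.075) and CTSA (−0.081) turned negative. With upper-quartile scaling 241 genes were higher, the median of the 37 was 0.058 and ATG4B was 0.058. The cause of these changes was not tested beyond the shift in the median. With the exon length trend removed, 73 genes were higher and 53 lower, 0 of the 37 were higher, and ATG13 (0.008), GLA (−0.10), MAP1LC3A (−0.15) and ATG4B (0.061) turned.

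Same-numbered libraries deviated from their group means with correlations of −0.002, −0.246 and −0.18, and those with unlike numbers with −0.186 to 0.307. A column number is tied to no single sample, so these values, and a block built on the numbers, cannot show whether libraries are paired. With a replicate block, which ended the calls of BNIP3, BNIP3L and VPS11 too (limma adjusted p between 0.176 and 0.205), 0 genes were higher and 0 lower, 0 of the 37 among them, and GABARAPL2 stayed at 0.67 (limma adjusted p = 0.186).

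With each library left out, 0 to 742 genes were higher and 0 to 583 lower, the highest counts without RSL3+ID 2, and 0 to 1 of the 37 were higher and 0 to 2 lower, with a median between −0.057 and −0.011. The medians of the further lists ran from 0.02 to 0.13 (initiation), −0.11 to 0.12 (conjugation and membrane supply), −0.10 to −0.002 (receptors), −0.11 to 0.086 (fusion), −0.15 to −0.043 (MTORC1 and TFEB control), 0.11 to 0.23 (V-ATPase), 0.055 to 0.14 (other enzymes) and −0.071 to 0.028 (other membrane proteins). Single genes that turned sign were MCOLN1 (−0.18 to 0.004), ULK1 (−0.054 to 0.30), MAP1LC3B (−0.031 to 0.35), ULK2 (−0.085 to 0.080), SCARB2 (−0.066 to 0.082), MAP1LC3A (−0.10 to 0.14), CTSA (−0.048 to 0.050) and ATG4B (−0.19 to 0.12). Depth limits GABARAP and TFEB most, the members with the lowest counts.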

Other observations

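Pairs of lysosomal genes within each library gave values that no scaling between libraries affects. The log2 ratio of CTSL to TPP1 was 2.01, 2.45 and 2.45 in RSL3+ID libraries, against 1.52, 1.61 and 1.72 in RSL3 libraries. The log2 ratio of LAMP2 to LAMP1 was −1.25, −1.50 and −1.36 in RSL3+ID libraries, against −1.83, −1.62 and −1.71 in RSL3 libraries. In both pairs the groups do not overlap. CTSL to CTSB did overlap, at −0.15, 0.17 and −0.13 in RSL3+ID libraries, against −0.33, −0.14 and −0.05 in RSL3 libraries. These pairs were picked after their values were seen, and no test is given.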
